A study of Mus musculus with 6 samples.

Results

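The circadian clock genes described here are Clock, Per1, Per2, Per3, Cry1, Cry2, Nr1d1, Nr1d2, Dbp and Tef, 10 of the 18089 genes in the deposited table. They were chosen by name as genes of the molecular clock, and all 10 were among the 14395 genes with enough counts to be tested. The set leaves out Bmal1, Npas2 and other core clock genes, which are described apart. RNA was sequenced from the ischemic gastrocnemius muscle of 3 wild-type (WT) and 3 GPR174-KO (Gpr174-/Y) mice, male C57BL/6 animals of 8 to 10 weeks, taken 7 days after hindlimb ischemia (HLI, ligation and excision of the femoral artery on one side). Every animal had the operation, so no library shows uninjured muscle. Gpr174 encodes a receptor for lysophosphatidylserine, and its knockout carries no tissue restriction in the labels. The question put to these genes was whether the 2 groups were sampled at a like phase of the clock. The hour at which the mice were killed is not given in the sources used here, so an hour of sampling that differed between the groups and an effect of the genotype cannot be told apart.

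In mammalian cells the proteins CLOCK and BMAL1 bind E-boxes and drive the Period and Cryptochrome genes, whose products return to the nucleus and repress CLOCK and BMAL1. In a further loop, the nuclear receptors NR1D1 and NR1D2 (REV-ERB alpha and beta) repress Bmal1 and Npas2 through ROR elements, where the ROR receptors activate. DBP and TEF are PAR bZIP factors that are themselves E-box targets and activate genes with D-boxes. Across mouse tissues Nr1d1, Nr1d2, Dbp, Tef and Per3 peak by day or around dusk, and Bmal1, Npas2 and Clock towards the end of the night. In skeletal muscle the clock times the daily switch between carbohydrate and fat as fuel.

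The binding motifs of these loops were searched in the RefSeq promoter windows of GRCm38.p6, which run from 250 bases before to 50 after each start. The authors' files were made on GRCm39, and no coordinates were converted. A window was matched for 9 of the 10 genes, all but Per2, with 13 windows in all. The E-box CACGTG was found for 3 genes (Per1, Cry1 and Tef), the E-prime box CACGTT for 3 (Cry1, Cry2 and Nr1d1) and the D-box TTANGTAA for 1 (Per3), counting both strands. Of all 32851 windows, 7.15% held the E-box, 4.68% the E-prime box and 2.32% the D-box. No matches overlapped each other. The windows of Clock, Nr1d2 and Dbp held none of the motifs searched, which says only that these letters are not in these windows. Shown here are the 250 bases before the start of Per1 (chr11:69098699-69098948, plus strand) and of Per3 (chr4:151044666-151044915, minus strand), shown because these Period genes both fell. They are followed by 30-base windows of other members and of Bmal1, with the motifs in capitals. The short windows lie at chr10:85185097-85185126 and chr10:85185116-85185145 (Cry1, minus strand), chr2:92434218-92434247 (Cry2, minus), chr11:98775388-98775417 (Nr1d1, minus), chr15:81802534-81802563 and chr15:81811264-81811293 (Tef, plus) and chr7:113207530-113207559 (Bmal1, plus).
Per1: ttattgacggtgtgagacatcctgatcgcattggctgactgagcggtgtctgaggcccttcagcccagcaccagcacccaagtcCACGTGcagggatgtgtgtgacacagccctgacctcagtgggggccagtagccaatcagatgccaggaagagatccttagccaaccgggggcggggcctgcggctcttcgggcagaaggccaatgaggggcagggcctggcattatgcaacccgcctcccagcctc
Per3: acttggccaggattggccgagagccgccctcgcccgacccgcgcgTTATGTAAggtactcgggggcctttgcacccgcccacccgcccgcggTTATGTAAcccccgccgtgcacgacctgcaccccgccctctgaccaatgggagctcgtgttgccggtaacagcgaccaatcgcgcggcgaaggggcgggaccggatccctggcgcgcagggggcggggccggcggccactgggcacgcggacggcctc
Cry1 E-box: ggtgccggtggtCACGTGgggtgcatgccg
Cry1 E-prime box: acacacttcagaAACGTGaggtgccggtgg
Cry2 E-prime box: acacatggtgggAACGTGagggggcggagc
Nr1d1 E-prime box: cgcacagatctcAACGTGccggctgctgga
Tef E-box, first window: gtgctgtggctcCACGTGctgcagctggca
Tef E-box, second window: cacctggcccagCACGTGtctacatcgttt
Bmal1 ROR element: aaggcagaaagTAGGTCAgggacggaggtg
The E-box of Per1 lay 166 bases before its start, and the D-boxes of Per3 lay 205 and 158 bases before theirs. Both D-boxes of Per3 read TTATGTAA. The ROR element of Bmal1, TAGGTCA, lay 30 bases after the gene start of the second of its windows. TAGGTCA was present in 2.61% and its variant TGGGTCA in 3.98% of all windows, and the cAMP response element TGACGTCA in 1.79%. None of these was found for the 9 clock genes with a window.

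The libraries differed in ways that touch every result here. Replicate 2 lay between replicates 1 and 3 for 71.7% of the tested genes in WT and 64.1% in Gpr174-/Y muscles, and for 5 and 10 of the 10 clock genes. The standard errors and adjusted p-values given here take the libraries of a group to be independent samples, which was not tested and which this pattern puts in doubt. When replicate 2 of both groups was left out, 0 genes of the whole table passed an adjusted p of 0.05 with edgeR, although 5026 had an unadjusted p under 0.05. The disrupted Gpr174 had 8, 2 and 5 counts in the WT libraries and 1, 0 and 0 in the Gpr174-/Y libraries. Muscle identity was plain, with 14 markers of mature fibres (such as Acta1 and Myh4) taking 12.2% to 16.1% of the counts in WT and 6.37% to 6.87% in Gpr174-/Y libraries, and all 14 were lower in the latter. Over its marker list the macrophage genes summed to between 1211 and 1810 CPM (counts scaled to a common library size) in WT and between 2819 and 2825 in Gpr174-/Y muscles, with 6 of 6 higher. The endothelial sum was 955 to 1128 CPM in WT and 582 to 668 in Gpr174-/Y muscles, with 7 of 7 lower. Beside these marker counts, 27.6% of all tested genes passed as lower and 27.0% as higher at an adjusted p of 0.05 with edgeR. Of the regenerating fibre markers 5 of 7 were higher (Myh3 and Myh8 did not pass), and the sum was 2487 to 4964 CPM in WT and 4981 to 5767 in Gpr174-/Y muscles. Of the fibroblast markers Col1a1, Col1a2 and Col3a1 were higher and Pdgfra and Dcn lower, with a sum of 14927 to 21344 CPM in WT and 27240 to 30669 in Gpr174-/Y muscles. T cell and neutrophil markers were low (0 of 4 tested T cell genes passed, 1 neutrophil gene was higher and 1 lower), with sums of at most 23.5 and 35.3 CPM in any library, and the neutrophil gene Ly6g had 0 CPM in 5 of the 6 libraries. Fewer fibres and less RNA of a gene per fibre cannot be told apart in these bulk samples.

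Of the 10 clock genes, 7 were lower and 0 higher in Gpr174-/Y than in WT muscle at an adjusted p of 0.05. The genes that fell were Per1, Dbp, Tef, Per3, Nr1d2, Cry2 and Nr1d1, and those that did not pass were Clock, Per2 and Cry1. Among all tested genes 27.6% were lower and 27.0% higher by the same rule (54.6% in either direction). The median log2 fold change of the 10 was -0.49, against 0.00 over all tested genes. The groups did not overlap for the same 7 genes, where 65.6% of all tested genes did not overlap. One of the 10, Per1, also passed an absolute log2 fold change of 1, as did 8.28% of all tested genes. The count of 7 lower genes was also given by DESeq2 and by limma voom, and 0 of the 10 were higher there. The members also had no higher call at an unadjusted p under 0.05. Scaled by total counts instead of TMM, the log2 fold changes of all genes moved by a median of 0.27. By that scaling 5 of the 10 were lower (Per1, Per3, Nr1d2, Dbp and Tef) and 2 higher (Clock and Per2). There 14.0% of all tested genes were lower and 50.7% higher.

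**Figure D1:**
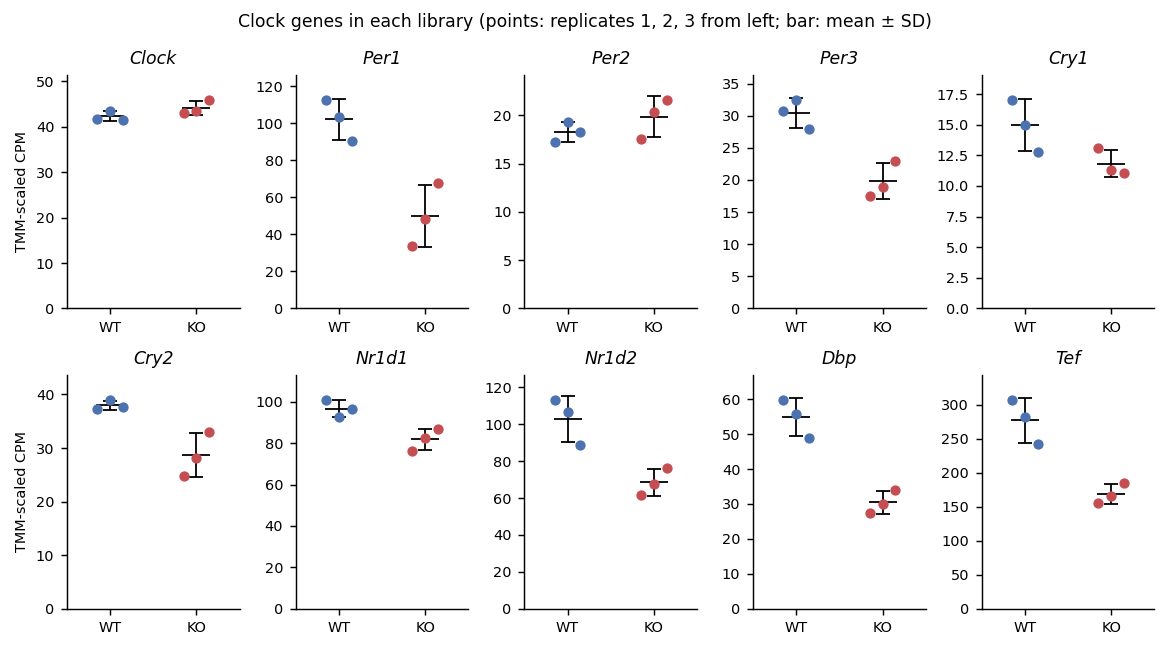
Level of each clock gene in CPM after TMM scaling, from 0, in the 3 WT and 3 Gpr174-/Y (KO) libraries, with replicates 1, 2 and 3 from left to right and the mean ± SD as a bar. The groups are apart for Per1, Per3, Cry2, Nr1d1, Nr1d2, Dbp and Tef and overlap for Clock, Per2 and Cry1, and Per1 has the widest spread, from 34.0 to 67.5 CPM within the KO group.

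Dbp and Tef, the PAR bZIP outputs of the clock, fell together. Dbp was at 59.8, 55.7 and 48.9 CPM in WT replicates 1, 2 and 3 and at 27.3, 30.1 and 33.9 CPM in the Gpr174-/Y replicates. Every Gpr174-/Y library was thus under every WT library, with a log2 fold change of -0.85 (standard error 0.10, adjusted p = 0.00133, edgeR). Tef, the most abundant of the 10 genes, was at 307, 282 and 242 CPM in WT and 156, 166 and 186 CPM in Gpr174-/Y muscles. It had a log2 fold change of -0.71 (standard error 0.11, adjusted p = 0.00230), again without overlap. Both passed without any 1 of the 6 libraries, where Dbp ranged from -0.93 to -0.77 and Tef from -0.79 to -0.62. With total counts they were at -0.57 and -0.43 and still passed. The third PAR bZIP gene, Hlf, was at 7.53, 6.61 and 4.78 CPM in WT and 3.58, 4.05 and 5.49 CPM in Gpr174-/Y muscles. The groups overlapped, and its log2 fold change of -0.52 (standard error 0.22, adjusted p = 0.0823) did not pass, but it did without WT replicate 3 (0.0121) or Gpr174-/Y replicate 3 (0.0438). Nfil3, which represses the same D-box sites, had a log2 fold change of -0.13 (adjusted p = 0.216) that turned to 0.15 with total counts.

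The Period genes, which encode the repressors that accumulate in the nucleus each day, did not move as one. Per1 was at 113, 103 and 90.5 CPM in WT and at 34.0, 48.4 and 67.5 CPM in Gpr174-/Y muscles. Its log2 fold change of -1.03 (standard error 0.23, adjusted p = 0.00942) was the largest of the 10, and so was its error. Per3 was at 30.7, 32.5 and 27.9 CPM in WT and at 17.5, 18.9 and 22.9 CPM in Gpr174-/Y muscles. The groups were apart, with a log2 fold change of -0.62 (standard error 0.11, adjusted p = 0.00420). Per2 was at 17.2, 19.3 and 18.3 CPM in WT and at 17.5, 20.4 and 21.6 CPM in Gpr174-/Y muscles. These ranges overlapped, and the log2 fold change was 0.12 with a 95% interval from -0.10 to 0.34 (adjusted p = 0.310). With total counts Per2 was at 0.39 (adjusted p = 0.0179). Per1 and Per3 passed without any 1 library and with total counts, at -0.75 and -0.34.

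The Cryptochromes, partners of the Period proteins in repression, were at or below the WT level. Cry2 was at 37.3, 39.0 and 37.6 CPM in WT and at 24.8, 28.2 and 33.0 CPM in Gpr174-/Y muscles. These libraries were apart, with a log2 fold change of -0.40 (standard error 0.10, adjusted p = 0.0144). That call was lost without WT replicate 2 (0.0634), without Gpr174-/Y replicate 2 (0.0550) and with total counts (-0.13, adjusted p = 0.363). Cry1 was at 17.0, 15.0 and 12.8 CPM in WT and at 13.1, 11.3 and 11.1 CPM in Gpr174-/Y muscles. WT replicate 3 lay under the highest Gpr174-/Y library, and the log2 fold change of -0.34 (95% interval -0.63 to -0.05) had an adjusted p of 0.0519. It passed without WT replicate 3 (0.00599) or without Gpr174-/Y replicate 1 (0.0497).

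The REV-ERB receptors, which repress Bmal1, were lower to unequal extents. Nr1d2 was at 113, 106 and 89.0 CPM in WT and at 61.7, 67.7 and 76.4 CPM in Gpr174-/Y muscles. The groups were apart, with a log2 fold change of -0.58 (standard error 0.11, adjusted p = 0.00542), and the call held without any 1 library. Nr1d1 was at 101, 92.8 and 96.3 CPM in WT and at 76.3, 82.6 and 86.6 CPM in Gpr174-/Y muscles. Its log2 fold change of -0.24 (standard error 0.06, adjusted p = 0.0179) was the smallest of the 7 that passed. The call on Nr1d1 was lost without WT replicate 1 (0.0516), Gpr174-/Y replicate 1 (0.0579) or Gpr174-/Y replicate 2 (0.0637). With total counts the value of Nr1d1 turned to 0.035 (adjusted p = 0.696), while Nr1d2 stayed at -0.30 (adjusted p = 0.0395).

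Clock, the activator that pairs with BMAL1, had the smallest fold change of the 10. It was at 41.8, 43.6 and 41.6 CPM in WT and at 43.0, 43.6 and 46.0 CPM in Gpr174-/Y muscles. The groups overlapped, and the log2 fold change of 0.06 had a 95% interval from -0.06 to 0.18 (adjusted p = 0.329). Scaled by total counts Clock was at 0.34 (adjusted p = 0.00382). Its partners differed from it. Bmal1 (Arntl) was at 19.6, 21.4 and 21.7 CPM in WT and at 34.0, 32.5 and 29.9 CPM in Gpr174-/Y muscles, a log2 fold change of 0.62 (standard error 0.07, adjusted p = 0.00120). Npas2, which can stand in for CLOCK, was at 10.02, 9.82 and 9.61 CPM in WT and at 15.0, 16.1 and 15.6 CPM in Gpr174-/Y muscles. Npas2 had a log2 fold change of 0.67 (standard error 0.06, adjusted p = 0.000839). Both were higher in every Gpr174-/Y library than in any WT library, and both passed without any 1 library and with total counts, at 0.89 and 0.94.

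The list of 11 other core clock genes held 3 that were higher and 3 that were lower, beside 27.0% and 27.6% of all tested genes. Besides Bmal1 and Npas2, Bhlhe40, an E-box repressor, was higher (log2 fold change 0.21, adjusted p = 0.0264), a call lost without WT replicate 2 (0.0957), Gpr174-/Y replicate 2 (0.0822) or Gpr174-/Y replicate 3 (0.0740). Of the lower genes, Rora, a receptor that activates Bmal1, was at 56.6, 50.2 and 47.4 CPM in WT and at 28.4, 32.7 and 35.7 CPM in Gpr174-/Y muscles, with a log2 fold change of -0.67 (standard error 0.10, adjusted p = 0.00243) that passed without any 1 library. Rorb, at most 1.37 CPM in any library, had a log2 fold change of -0.59 (adjusted p = 0.0470), which passed in 1 of the 6 fits that left out 1 library, the one without Gpr174-/Y replicate 1. Bmal2 (0.19, adjusted p = 0.259), the repressor Ciart (0.18, adjusted p = 0.428) and Bhlhe41 (-0.15, adjusted p = 0.154) did not pass, and Bhlhe41 turned to 0.13 with total counts and passed without WT replicate 3 (-0.21, adjusted p = 0.0104).

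**Figure D2:**
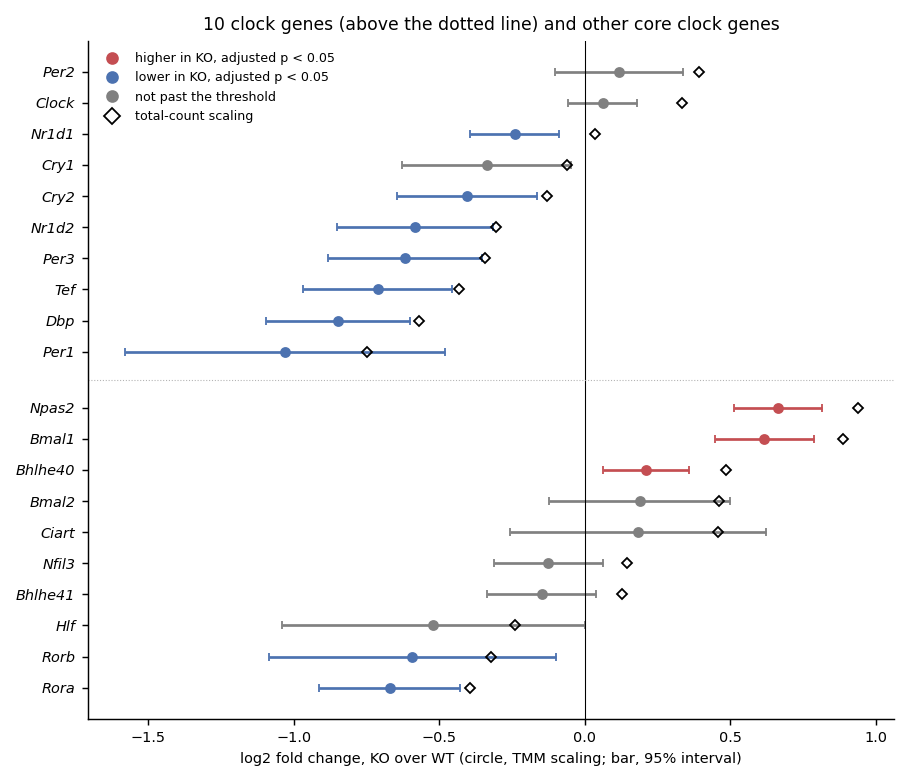
Log2 fold change, Gpr174-/Y (KO) over WT, of the 10 clock genes and other core clock genes, with TMM scaling (circle) and its 95% interval (bar), and with total-count scaling (diamond). Npas2 (0.67) and Bmal1 (0.62) lie to the right of 0 and Per1 (-1.03), Dbp (-0.85), Tef (-0.71) and Rora (-0.67) to the left under both scalings, while Nr1d1 crosses 0.

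Of 13 genes for enzymes and partners that modify clock proteins, 12 were tested, 1 was higher and 4 lower, beside the same shares of all tested genes. Usp2, a deubiquitinase with a strong daily rhythm, had the largest change of this list, at 188, 174 and 156 CPM in WT and 80.6, 81.9 and 86.9 CPM in Gpr174-/Y muscles (log2 fold change -1.05, adjusted p = 0.000555). The casein kinases Csnk1d (0.08, adjusted p = 0.187) and Csnk1e (0.02, adjusted p = 0.761), which phosphorylate Period proteins, did not pass. With total counts Csnk1d (0.35) and Csnk1e (0.29) passed as higher.

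The ratio of 2 genes within a library does not depend on how the library is scaled, so 6 ratios were compared by a 2-sided exact permutation test, in which 3 samples against 3 cannot give a p under 0.1. The counts of Dbp stood to those of Clock as 1.43, 1.28 and 1.18 in WT and as 0.635, 0.691 and 0.737 in Gpr174-/Y libraries. This ratio was 1.88-fold lower in Gpr174-/Y muscles. The ratio of Nr1d1 to Bmal1, a repressor and its target, was 5.15, 4.33 and 4.44 in WT and 2.24, 2.54 and 2.90 in Gpr174-/Y libraries, 1.81-fold lower. Per3 to Clock was 1.61-fold lower and Nr1d1 to Clock 1.23-fold lower. Per1 to Per2 went from 6.55, 5.34 and 4.95 in WT to 1.94, 2.37 and 3.12 in Gpr174-/Y libraries, 2.29-fold lower. None of these 5 ratios overlapped between the groups, and each had p = 0.1, the smallest the exact test allows (0.12 adjusted over the 6 ratios). Of single tested genes 65.6% did not overlap, and the share of other gene pairs without overlap was not counted. The ratios reuse the gene counts behind the results above, and some share Clock or Nr1d1, so they are not independent of those results or of each other. Per2 to Cry1 ranged from 1.01 to 1.43 in WT and from 1.34 to 1.95 in Gpr174-/Y libraries, which overlap, with an exact permutation p of 0.2.

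**Figure D3:**
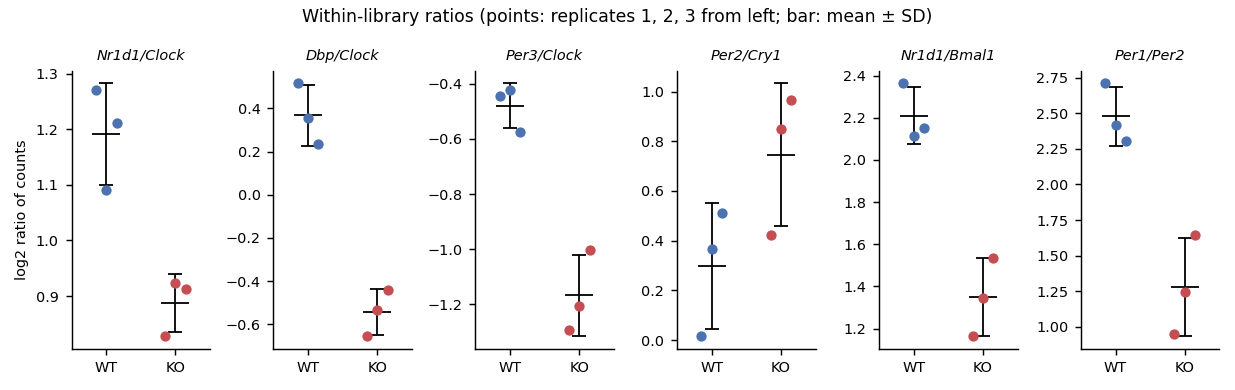
Log2 ratio of the counts of 2 clock genes within each library, for 6 ratios, in the 3 WT and 3 Gpr174-/Y (KO) libraries, with replicates 1, 2 and 3 from left to right and the mean ± SD as a bar. The axes do not start at 0 and differ between panels. The groups are apart for every ratio shown except Per2/Cry1, and the Per1/Per2 ratio falls from a log2 mean of 2.48 to 1.28.

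The spread of the clock genes among replicates was set beside that of all genes. In the Gpr174-/Y group the highest library exceeded the lowest by a median of 1.24-fold over the 10 clock genes, against 1.10-fold over all tested genes, and 9 of the 10 lay above that median. In the WT group the corresponding values were 1.19-fold and 1.18-fold, with 5 of 10 above. Among the Gpr174-/Y libraries Per1 had the widest range of the 10, 1.99-fold. Its range among the WT libraries was 1.25-fold, where Cry1 had the widest (1.33-fold). Gpr174-/Y replicate 3 was the highest of its group for 9 of the 10 genes, and replicate 1 the lowest for the same 9, with Cry1 the reverse. Of all tested genes 38.5% were highest in Gpr174-/Y replicate 3. In the WT group replicate 3 was the lowest library for 7 of the 10 genes. The level of Bmal1 ran the other way, highest in Gpr174-/Y replicate 1 (34.0 CPM) and lowest in WT replicate 1 (19.6 CPM) within their groups. The shares of all tested genes that were lowest in Gpr174-/Y replicate 1 or in WT replicate 3 were not counted.

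The 7 clock genes that fell and the share of mature fibre markers were both lower in Gpr174-/Y libraries, while Bmal1 and Npas2 were higher there and Clock, Per2 and Cry1 overlapped between the groups. The part of the fibre share in these results was not tested. In WT libraries the markers took 16.1%, 14.6% and 12.2% of the counts in replicates 1, 2 and 3, the order in which 5 of the 10 clock genes also stood (Per1, Cry1, Nr1d2, Dbp and Tef), with the other 5 in neither that order nor its reverse. Among the Gpr174-/Y libraries the share was 6.87%, 6.68% and 6.37%, and there Cry1 stood in that order and the other 9 in the opposite one. Of all tested genes, 71.7% in WT and 64.1% in Gpr174-/Y muscles stood in that order or its reverse. The share in each order alone was not counted.

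**Figure D4:**
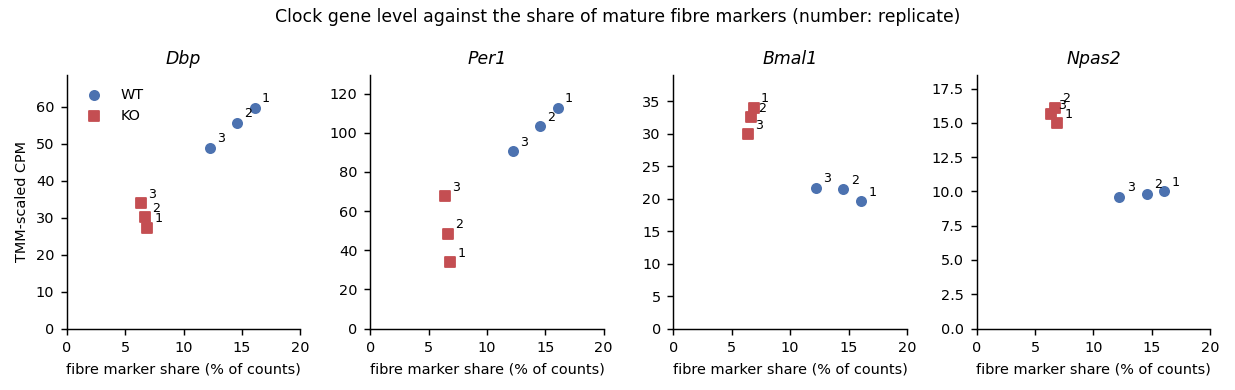
CPM of Dbp, Per1, Bmal1 and Npas2 (vertical, from 0) against the percent of all counts taken by 14 mature muscle fibre markers (horizontal) in the 3 WT (circles) and 3 Gpr174-/Y (KO, squares) libraries, with the replicate number beside each point. WT libraries lie at 12.2% to 16.1% and KO libraries at 6.37% to 6.87%, and Per1 spans 34.0 to 67.5 CPM among the KO libraries.

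Levels of different genes were compared per transcript length, as the authors' TPM (transcript abundance scaled to length and library size). In WT muscles Tef led with 113 ± 7.68 TPM (SD, n = 3), followed by Nr1d1 (60.8 ± 2.94), Dbp (58.1 ± 3.10), Nr1d2 (38.2 ± 2.87), Per1 (37.6 ± 2.28), Cry2 (16.8 ± 0.780), Per3 (8.81 ± 0.468), Cry1 (8.56 ± 0.780), Clock (7.45 ± 0.369) and Per2 (5.65 ± 0.478). In this order the libraries of Nr1d1 and Dbp overlapped, as did those of Nr1d2 and Per1 and of Per3 and Cry1, while the other neighbours were apart. In Gpr174-/Y muscles Tef (91.5 ± 11.1 TPM) and Nr1d1 (67.6 ± 6.53 TPM) still led. There Nr1d1 stood apart from Dbp (42.7 ± 5.77 TPM), and Per3 (7.68 ± 1.35 TPM) came last behind Clock (10.3 ± 0.735 TPM), Cry1 (8.91 ± 0.583 TPM) and Per2 (8.08 ± 1.03 TPM), but the libraries of Cry1 and Per2 overlapped, as did those of Per2 and Per3. Overlap was also seen between Dbp and Nr1d2, Nr1d2 and Per1, and Per1 and Cry2. TPM is scaled to the total of each library and not by TMM, so its group differences are not those of the CPM values.

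The values are sums over the transcripts of a gene, and the split among transcripts was not stable. The 5 transcripts of Per1 shared its reads so unevenly that the leading one took between 0% and 99.2% of them in single libraries. Of the 11 transcripts of Clock the leading one took between 11.3% and 55.1%, and of the 3 of Dbp between 75.1% and 82.9%. Nr1d1 and Nr1d2 had 1 transcript each. The strand use of the counting is not given in the sources used here, so reads from exons that overlap a gene on the opposite strand cannot be assigned. By GENCODE M21, 8.55% of the exonic bases of Nr1d1 overlap Thra, which was also lower (log2 fold change -0.36, adjusted p = 0.00437). For Dbp the overlap was 18.0% with Sphk2, which was slightly higher (0.16, adjusted p = 0.0372). Cry2 (4.67%) and Tef (2.45%) overlap D930015M05Rik and Gm17597.

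The genes whose level followed Per1 most closely over the 6 libraries were Sec22c, Gm10130 and Matn4, with Pearson correlations of log2 CPM of 0.999, 0.998 and 0.997. These libraries fall into 2 separate groups and share their scaling, and 289 genes outside the 10 had a correlation with Per1 above 0.95. Matn4 was at 8.28, 7.02 and 6.18 CPM in WT and at 2.48, 3.53 and 4.60 CPM in Gpr174-/Y muscles, a log2 fold change of -1.01 (adjusted p = 0.00876), close to that of Per1.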

How the data were processed

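Per the labels and the paper's methods, ischemic muscle RNA of 3 WT and 3 GPR174-KO mice was sequenced by BGI (BGISEQ-500 in the methods, an Illumina TruSeq kit in the labels). The submitters' processing notes name HISAT2 2.0.4, Bowtie2 2.2.5, RSEM 1.2.12 and GRCm39, without their roles. The authors deposited expected counts (estimated reads for each of 58843 transcripts), FPKM and TPM per library, together with group means that were not used. The authors scaled FPKM and TPM to transcript length and library size. Expected counts were summed per Entrez gene and rounded, and 99.7% of 18089 genes received a RefSeq symbol. Totals ranged from 18417077 to 19394469 per library, and intervals cover the spread between these samples only.

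Groups were compared with edgeR 4.0.16 in R 4.3.3 (TMM scaling, filterByExpr, robust quasi-likelihood test, Benjamini-Hochberg adjustment over 14395 genes, threshold 0.05, with an absolute log2 fold change of 1 counted apart). The standard error is the absolute log2 fold change divided by the root of F. CPM uses the TMM-scaled library sizes. The study's own tool, DEGseq, was not run. Alternatives were DESeq2 1.42.0, limma 3.58.1 (voom, and log2(FPKM + 1) or log2(FPKM + 0.1), keeping genes that reached 1 FPKM in 3 or more libraries), other scalings and filters, a replicate block and left-out libraries. Fits were tested on simulated counts with independent libraries and few changed genes. That setting differs from these data, so it does not show how the fits behave on them.

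The clock genes, the lists and the tests were chosen with earlier results of these data known. Named genes are the 10 clock genes, the other core clock genes, up to 4 genes in each direction of the other lists past the threshold with an absolute log2 fold change over 0.5, Gpr174, the 2 most abundant markers of each cell type list, and the 3 genes most like the member with the largest fall (none rose). Genes named beyond this rule were chosen after their values were seen. Some genes of these lists are counted but not reported here by name. The labels do not say whether same-numbered libraries belong together, and their deviations from the group means correlated at 0.0163, -0.0281 and -0.00839, so no block was used.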

Additional observations from a re-analysis of the deposited data

How the results depend on the processing

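Nr1d1 was the single member whose direction turned, to 0.035 with total counts, 0.031 with log2(FPKM + 1) and 0.032 with log2(FPKM + 0.1). Over the 10 members and 16 alternatives, 130 comparisons kept direction and side of the threshold. Another 18 kept direction but lost the call, and 9 gained one. The remaining 3, all of Nr1d1, reversed and also lost the call. Members higher numbered 0 in the fit reported and 2 with total counts and both FPKM fits, and lower members numbered 4 in both FPKM fits, where Per3 and Cry2 were lost (Per3 adjusted p = 0.0503 and 0.0516). In the fits that left out 1 library, or replicate 2 of both groups, the members called ranged from 0 to 8, none of them higher, and the 0 came without both replicates 2 (5 members with an unadjusted p under 0.05, 0 of them higher). The other core clock genes called ranged from 0 to 7 there, 3 without either replicate 2 alone, the modifiers from 0 to 6, the outputs from 0 to 8, the glucocorticoid-induced genes from 0 to 7 and the temperature-linked genes from 0 to 3. Modifiers called numbered 9 with total counts and 8 in both FPKM fits, and temperature-linked genes 4 in both FPKM fits. The number of all genes called moved as well. It was 7863 of 14395 in the fit reported and 9313 of 14395 with total counts (7303 higher). With log2(FPKM + 1) and log2(FPKM + 0.1) it was 8661 and 8634 of 12525 (6832 and 6812 higher). In the fits that left out 1 library it ranged from 5457 to 9165, of 14525 to 14587 genes tested. With the replicate block 3 of the other core clock genes passed, Nr1d1 was lost (adjusted p = 0.0516) and Cry1 gained (0.0256). The 6 ratios kept their direction in all 48 alternatives, among them TPM in place of counts and each left-out library. For the ratios whose groups did not overlap, leaving out libraries could not reverse the direction, so those fits show nothing further. The causes of these changes were not tested.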

Other observations

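Of 9 genes known to follow the clock in muscle or many tissues, 2 were higher and 5 lower in Gpr174-/Y muscles, where 27.0% of all tested genes were higher and 27.6% lower. The lower ones included Tcap, a sarcomere gene (751, 702 and 653 CPM in WT and 191, 212 and 244 CPM in Gpr174-/Y muscles, log2 fold change -1.70, adjusted p = 0.000415), and Pdk4, which spares glucose by blocking pyruvate dehydrogenase (356, 357 and 351 against 118, 133 and 160 CPM, -1.37, adjusted p = 0.000620). Ucp3 (-1.56, adjusted p = 0.00146) and Klf15 (-1.02, adjusted p = 0.00750) were also lower. Myod1, the myogenic regulator, rose from 85.2, 88.3 and 91.7 CPM to 137, 129 and 119 CPM (0.54, adjusted p = 0.00139), and the cell cycle inhibitor Cdkn1a was higher (0.95, adjusted p = 0.00475). These calls passed without any 1 library. The clock-driven Wee1 had a log2 fold change of 0.11 (adjusted p = 0.192), and of 0.38 with total counts, where it passed.

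Corticosterone has a daily rhythm and induces Per1. Of 9 glucocorticoid-induced genes, 5 were lower and 1 higher, against the same 27.6% and 27.0% of all tested genes. Klf9 was at 177, 162 and 132 CPM in WT and at 64.2, 70.5 and 78.3 CPM in Gpr174-/Y muscles (log2 fold change -1.14, adjusted p = 0.00103). Sgk1 (-1.10, adjusted p = 0.000946), Tsc22d3 (-0.86, adjusted p = 0.00377) and Dusp1 (-0.82, adjusted p = 0.000871) were lower too, and these 4 passed without any 1 library. Fkbp5, an often used glucocorticoid reporter, was at 35.4, 35.5 and 38.5 CPM in WT and at 36.6, 38.6 and 40.0 CPM in Gpr174-/Y muscles (0.07, adjusted p = 0.331), and passed as higher with total counts (0.35). The metallothionein Mt2 was higher (0.60, adjusted p = 0.0289), a call lost without WT replicate 1 (0.0557) or 2 (0.0840) and Gpr174-/Y replicate 2 (0.0697) or 3 (0.0921). Among 8 cold-induced or heat-shock genes, 2 were higher and 0 lower, where 27.0% of all tested genes were higher and 27.6% lower. Lower calls also numbered 0 at an unadjusted p under 0.05, and 0 by DESeq2 and limma voom. Hspb1 (-0.75, adjusted p = 0.121) passed as lower without WT replicate 1 (-1.05, adjusted p = 0.00804). The higher genes were the cold-induced Rbm3 (0.59, adjusted p = 0.00502) and the chaperone Hsp90aa1 (0.85, adjusted p = 0.000900), and Cirbp was at 0.01 (adjusted p = 0.911). The list joins cold-induced and heat-shock genes, so its count gives no single direction of temperature.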
